A study of Mus musculus with 6 samples.

Results

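Genes of major histocompatibility complex (MHC) class II antigen presentation were followed in mouse liver under a normal and a high-fat diet. The 9 genes were H2-Aa, H2-Ab1, H2-Eb1, H2-DMa, H2-DMb1, Cd74, Ciita, Ctss and Ifi30, and a probe set (the group of short probes that reads a transcript) was taken where the platform annotation gave it exactly 1 of these symbols. This found 16 probe sets for 8 of the 9 genes, out of 18193 genes with such a probe set in all. H2-DMb1 had none, since the 2 probe sets that name it also name H2-DMb2, and it is not analysed here. The animals were male C57BL/6 mice, an inbred strain, aged 8 weeks at the start. For 12 weeks they ate a normal diet or a feed in which fat gave 60% of the calories (high-fat), and liver was then taken. No transgene or drug is named for either group. Total RNA of 6 mice per diet was combined by 2, read here as 3 pools per diet, and hybridised to Affymetrix mouse genome arrays, 1 array per pool. The arrays (n = 3 per diet) are the replicates, so the spread between single mice was not seen.

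MHC class II molecules are pairs of an alpha and a beta chain that show peptides from swallowed proteins to CD4+ T cells. They assemble with the invariant chain, encoded by Cd74, which blocks the groove until proteases in endosomes, cathepsin S among them, cut it to a short remnant that H2-DM then helps to exchange for peptide. Dendritic cells, B cells and macrophages carry most class II, and in liver these include Kupffer cells, the resident macrophages. Bulk liver RNA mixes all of these with hepatocytes, so more class II-bearing cells and more RNA per cell cannot be told apart here.

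Values are log2 expression levels, so a difference of 1 is a 2-fold change. A difference is the high-fat mean minus the normal diet mean, given ± its standard error (SE) from a limma fit over 14071 genes, and "rose" or "fell" means a Benjamini-Hochberg adjusted p below 0.05. A gene was tested if it lay above an array's 40th percentile (3.48 to 3.59) in at least 3 arrays, and the probe set with the highest mean stood for it. Levels of different probe sets are not compared, because probes differ in brightness. The arrays correlated at 0.994 to 0.995 within the high-fat diet and at 0.984 to 0.992 within the normal diet (Pearson's r across probe sets). Normal diet 3 stood apart on the first principal component, with a score of -46.2 against -15.6 and -12.5 in normal diet 1 and 2. The Gapdh controls, which compare the 3' with the 5' end of a transcript and so reflect RNA integrity, differed by 0.36 in normal diet 1 and by -0.19 to 0.0086 in the other arrays. The hepatocyte marker Alb, the albumin gene, lay at 14.37 to 14.49 in all 6 arrays, which checks only the tissue label, since a level near the top of the array scale cannot show whether hepatocyte RNA was steady.

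Of the 8 measured genes 4 rose, 0 fell and 4 were not called by limma, where 5.87% of all tested genes rose. H2-Ab1 and H2-Aa, the chains of the I-A molecule, rose 3.42-fold and 2.55-fold, the invariant chain gene Cd74 rose 2.31-fold and the protease gene Ctss 1.93-fold. The median difference over the 8 genes was 1.08, against 0.0033 over all tested genes. In 7 of the 8 every high-fat array lay above every normal diet array, as it did in 21.1% of all tested genes, and Ciita was the exception. These 7 were above the level filter in all 6 arrays, so none entered through its high group alone. Without normal diet 3 the same count of 4 rose, and H2-Aa, H2-Ab1, Cd74 and Ctss then differed by 1.30, 1.68, 1.03 and 1.03. Without high-fat 1, 2 and 3 the count was 3, 2 and 3.

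**Figure D1:**
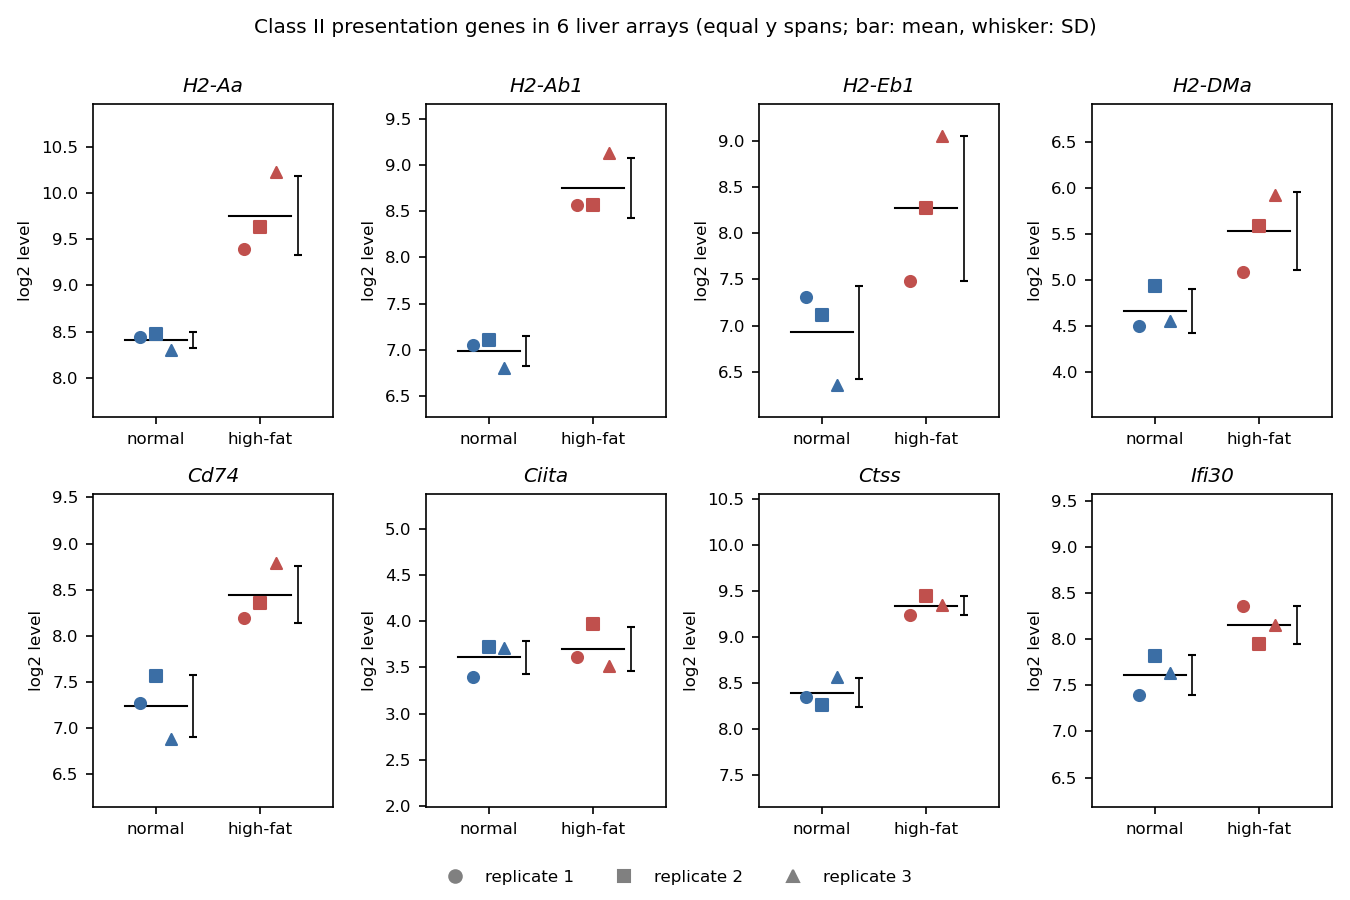
Log2 level (y axis, equal spans, heights not comparable between genes) of 8 class II presentation genes in 3 normal diet arrays (blue) and 3 high-fat arrays (red). Symbols give the replicate, bars the mean and whiskers the SD (n = 3). The high-fat arrays lie above the normal diet arrays in every gene but Ciita, and the gap is narrow for H2-Eb1, H2-DMa and Ifi30.

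The class II chains come first. H2-Ab1, which encodes the beta chain of I-A, was measured at 7.05, 7.10 and 6.80 in normal diet 1, 2 and 3 and at 8.57, 8.57 and 9.13 in high-fat 1, 2 and 3. The groups were well apart, with high-fat 3 the highest array. The difference was 1.78 ± 0.18 (limma adjusted p = 0.00395), and H2-Ab1 kept its call whichever array was left out (1.59 to 1.87).

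H2-Aa encodes the alpha chain of I-A. Its log2 levels were 8.44, 8.47 and 8.30 under the normal diet and 9.40, 9.64 and 10.23 under the high-fat diet. The normal diet arrays were close together (SD 0.088), and the high-fat arrays spread more widely (SD 0.43), with high-fat 3 on top. The difference was 1.35 ± 0.20 (limma adjusted p = 0.0124), and the call ended without high-fat 2 (1.41, adjusted p = 0.0539).

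H2-Eb1 encodes the beta chain of the other mouse class II molecule, I-E. C57BL/6 mice carry a defect in the matching alpha chain gene and have no I-E on their cells, although the beta chain gene is intact. H2-Eb1 lay at 7.31, 7.11 and 6.35 under the normal diet and at 7.48, 8.28 and 9.05 under the high-fat diet. The lowest high-fat array was just above the highest normal diet array, and high-fat 3 exceeded high-fat 1 by more than the diets' means differed. With a difference of 1.35 ± 0.40, nearly that of H2-Aa, H2-Eb1 did not pass (limma adjusted p = 0.0872). Its SD was 0.50 in the normal diet and 0.78 in the high-fat diet, the widest of the 8 genes in both diets. Leaving out normal diet 3 gave 1.06, leaving out high-fat 3 gave 0.96 and leaving out high-fat 1 gave 1.74, none of them called.

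H2-Aa and H2-Ab1 were each read by several probe sets, which allowed the same transcripts to be checked again. All 7 of them had every high-fat array above every normal diet array. Among all tested genes, each read by 1 probe set, 21.1% did so, and the share over all probe sets was not counted. With probe sets tested individually, 4.61% of all probe sets above the filter rose by limma. For H2-Ab1 the other 2 probe sets also rose, by 1.42 ± 0.22 (1451721_a_at, limma adjusted p = 0.0145) and 1.17 ± 0.20 (1425477_x_at, limma adjusted p = 0.0194). For H2-Aa the probe set 1452431_s_at rose by 1.53 ± 0.25 (limma adjusted p = 0.0178), while 1438858_x_at differed by 0.94 ± 0.24 and did not pass (limma adjusted p = 0.0695). The fourth H2-Aa probe set, 1443783_x_at, lay at 2.61 to 2.89 and 3.24 to 3.81 and was below the filter.

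The probe sets of a gene gave different orders of the arrays within a diet. High-fat 3 was the highest array in 5 of the 7, but in 1452431_s_at of H2-Aa high-fat 1, 2 and 3 lay at 8.56, 7.71 and 8.15. In 1425477_x_at of H2-Ab1 they lay at 7.52, 6.91 and 7.24. In these 2 probe sets high-fat 1 was the highest and normal diet 1 the lowest array, at 6.25 and 5.76. Normal diet 1 and high-fat 1 also had the highest and lowest Gapdh control difference, 0.36 and -0.19. Whether RNA integrity affected this order was not tested. All 7 thus separated the diets, 1443783_x_at from below the filter, while the rank of single pools within a diet depended on the probe set. All 7 carry a suffix (x, s or a) that marks probes shared with other transcripts or variants, and cross-reading between class II chains was not tested.

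**Figure D2:**
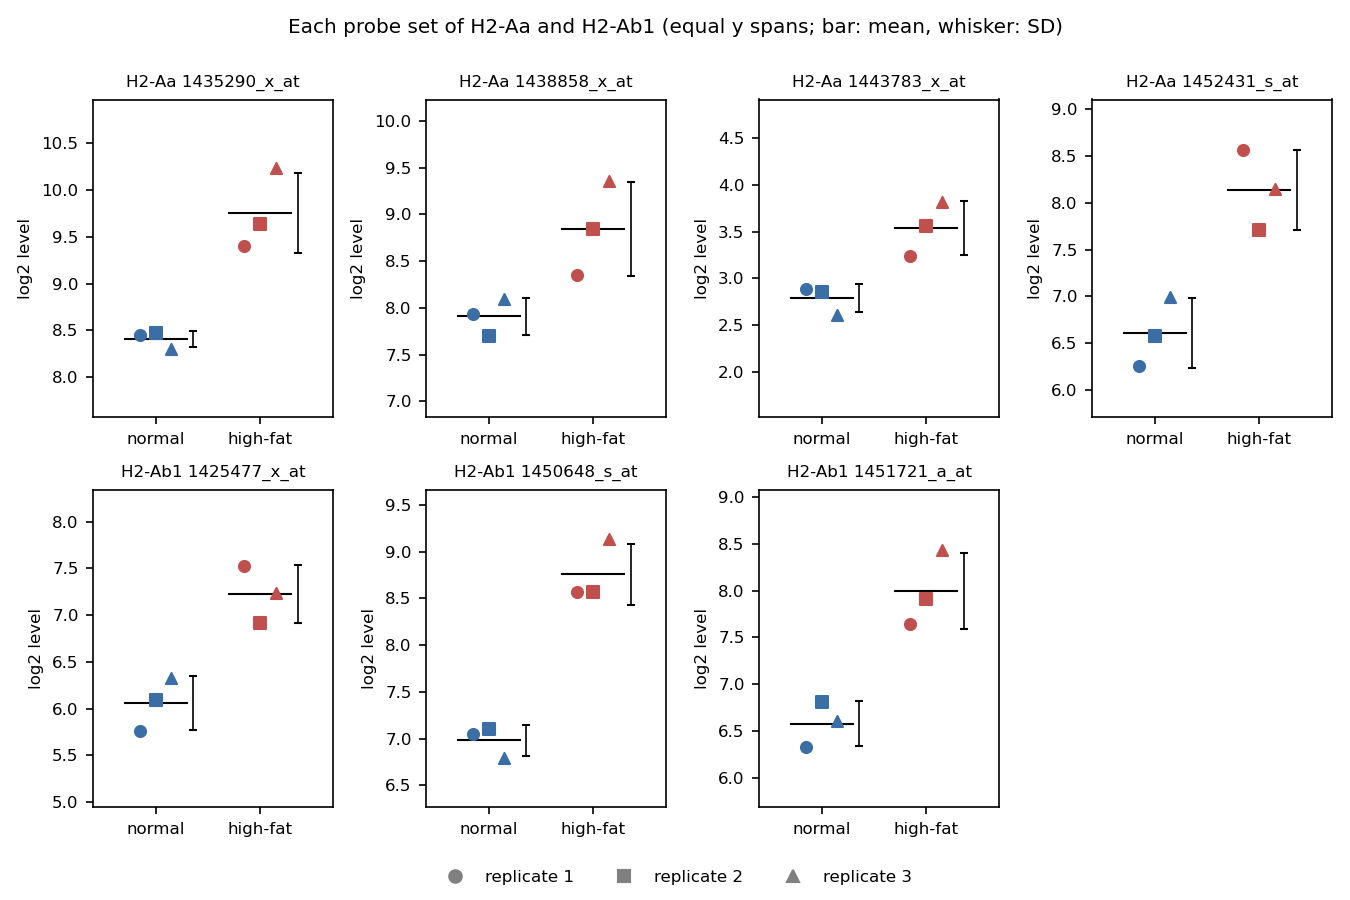
Log2 level in each array for the 4 probe sets of H2-Aa (top) and the 3 of H2-Ab1 (bottom), normal diet in blue and high-fat in red, with the mean and SD (n = 3). All 7 separate the diets, while the circles (replicate 1) are at the top of the high-fat group only in 1452431_s_at and 1425477_x_at.

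Among the chaperones of class II loading, Cd74 was measured at 7.27, 7.56 and 6.88 under the normal diet and at 8.19, 8.35 and 8.79 under the high-fat diet. Normal diet 3 was its lowest and high-fat 3 its highest array, as for H2-Aa, H2-Ab1 and H2-Eb1. The difference was 1.21 ± 0.21 (limma adjusted p = 0.0202), and it was not called without high-fat 1, 2 or 3 (1.33, 1.25 and 1.03, adjusted p = 0.0545, 0.0752 and 0.0795). Cd74 had a single probe set.

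H2-DMa, the alpha chain gene of the peptide exchange factor H2-DM, lay at 4.50, 4.94 and 4.56 under the normal diet and at 5.08, 5.58 and 5.92 under the high-fat diet. High-fat 1 was only a little above normal diet 2. The difference of 0.87 ± 0.22 missed the threshold (limma adjusted p = 0.0597), and it was called with the mean of its 2 probe sets (0.70, limma adjusted p = 0.0497). The second H2-DMa probe set differed by 0.53 ± 0.16 and did not pass (limma adjusted p = 0.0982), again with no overlap of the diets.

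Of the endosomal enzymes, cathepsin S (Ctss) cuts the invariant chain. Its levels were 8.35, 8.26 and 8.57 under the normal diet and 9.24, 9.44 and 9.34 under the high-fat diet. Both groups were tight (SD 0.16 and 0.10), and here high-fat 2 and not high-fat 3 was on top. Ctss differed by 0.95 ± 0.12 (limma adjusted p = 0.00741) and stayed called whichever array was left out (0.88 to 1.03, adjusted p up to 0.0491). Ifi30, which encodes the lysosomal thiol reductase GILT that opens disulfide bonds of proteins before they are cut, lay at 7.39, 7.82 and 7.63 and at 8.36, 7.95 and 8.16. Its lowest high-fat array was 0.13 above its highest normal diet array. The difference of 0.54 ± 0.15, a 1.46-fold higher mean, did not pass (limma adjusted p = 0.0747).

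Ciita encodes the transactivator that switches on class II, Cd74 and H2-DM genes in antigen-presenting cells. Its strongest probe set lay at 3.40, 3.72 and 3.71 under the normal diet and at 3.61, 3.97 and 3.51 under the high-fat diet, close to the level filter. The diets overlapped, and the difference was 0.088 ± 0.15 (limma adjusted p = 0.738). The other 2 Ciita probe sets, at 3.29 to 3.55 and 2.77 to 3.03 over the 6 arrays, were below the filter in most arrays. Levels this near the filter limit what the arrays could detect for Ciita.

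High-fat 3 was the highest high-fat array for H2-Aa, H2-Ab1, H2-Eb1, H2-DMa and Cd74, which is 5 of the 8 genes, and 36.4% of all tested genes had that array on top. Without high-fat 3 the differences of H2-Aa, H2-Ab1, H2-Eb1 and H2-DMa were 1.11, 1.59, 0.96 and 0.67, of which H2-Aa and H2-Ab1 were called.

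Class II promoters carry an X box, bound by the RFX factors, and a Y box, bound by NF-Y, to which CIITA docks. RefSeq promoters (GRCm38.p6) matched 6 of the 9 genes, and 300 bases around each start (250 before, 50 after) were searched on both strands for the X box letters AACNGATG and the Y box letters CTGATTGG, which do not overlap each other in the matches given here. The first were found in 2.32% and the second in 4.1% of 32851 promoters, and both in 0.0944%. Of the genes with measured values, H2-Eb1 held both, H2-Aa the Y box letters and Ctss the X box letters, while none was found for H2-DMa or Ifi30. H2-Ab1, Cd74 and Ciita had no matched promoter and were not searched. Only these exact letters were sought, so a gene without a match may still hold a box with other letters. The X box search first planned asked for 10 letters, the 8 above preceded by G and any base, and the 8-letter form was added after its matches had been seen. The 10-letter form was found in 0.782% of the promoters, and together with the Y box letters in 0.0517%. Both forms matched H2-DMb1, H2-Eb1 and H2-Eb2, and the longer one matched neither Ctss nor H2-DMb2, whose matches thus rest on the shorter form. The 140 bases before the start are shown for H2-Aa and H2-Eb1, and for H2-Eb2, H2-DMb2 and H2-Oa as class II genes that hold letters too, with matches in capitals.
H2-Aa (chr17:34287824-34287963, minus strand): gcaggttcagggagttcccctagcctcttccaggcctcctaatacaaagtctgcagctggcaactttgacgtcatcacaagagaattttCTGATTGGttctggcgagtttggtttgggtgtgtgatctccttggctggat
H2-Eb1 (chr17:34305727-34305866, plus strand): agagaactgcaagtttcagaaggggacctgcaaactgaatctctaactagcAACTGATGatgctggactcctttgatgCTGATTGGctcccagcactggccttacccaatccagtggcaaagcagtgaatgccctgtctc
H2-Eb2 (chr17:34325535-34325674, plus strand): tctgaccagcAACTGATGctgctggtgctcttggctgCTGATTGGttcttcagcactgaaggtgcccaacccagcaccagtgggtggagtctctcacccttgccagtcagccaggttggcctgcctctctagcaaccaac
H2-DMb2 (chr17:34145109-34145248, plus strand): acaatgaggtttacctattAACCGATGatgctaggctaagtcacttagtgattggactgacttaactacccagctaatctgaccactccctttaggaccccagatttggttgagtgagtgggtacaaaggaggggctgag
H2-Oa (chr17:34092239-34092378, plus strand): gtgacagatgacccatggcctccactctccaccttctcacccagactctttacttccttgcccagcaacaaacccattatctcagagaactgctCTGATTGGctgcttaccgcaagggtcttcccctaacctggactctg

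H2-Aa and H2-Eb1 had all high-fat arrays on top, as given above, and the other 3 had lower or overlapping values. H2-Eb2, a further beta chain gene, differed by -0.21 ± 0.11 (limma adjusted p = 0.249), with high-fat arrays at 5.72, 5.44 and 5.54 against 5.75, 5.79 and 5.79. H2-DMb2, a beta chain gene of H2-DM, lay at 4.69 to 4.99 and 4.56 to 4.63, and its difference of -0.29 ± 0.11 did not pass (limma adjusted p = 0.152), opposite in sign to that of H2-DMa. H2-Oa, the alpha chain gene of H2-O, which holds back H2-DM, differed by 0.17 ± 0.15 (limma adjusted p = 0.499) with overlapping groups. Its levels of 3.06, 3.63 and 3.46 and of 3.51, 3.55 and 3.60 were near the filter, which limits what could be detected. A match is a string of letters and not a measured binding site.

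The class II chain genes lie next to each other with other immune genes between them. RefSeq orders them as H2-Oa, Brd2, H2-DMa, H2-DMb2, H2-DMb1, Psmb9, Tap1, Psmb8, Tap2, H2-Ob, H2-Ab1, H2-Aa, H2-Eb1 and H2-Eb2. The 5 neighbours that are not class II differed by -0.17 to 0.25, and limma called none of them (0 at an unadjusted p below 0.05). H2-Ab1, H2-Aa and H2-Eb1, which adjoin each other, had the 3 largest differences among the tested genes of this order. H2-Oa and H2-Eb2 at its ends were not called, H2-Oa with levels near the filter. H2-Ob, the partner of H2-Oa, lay at 2.37 to 2.60 and 2.30 to 2.66, below the filter. A probe set named for H2-Ea, the alpha chain gene that is defective in this strain, lay at 5.95 to 6.05 and 5.36 to 6.08 and differed by -0.27 ± 0.18 (limma adjusted p = 0.364).

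**Figure D3:**
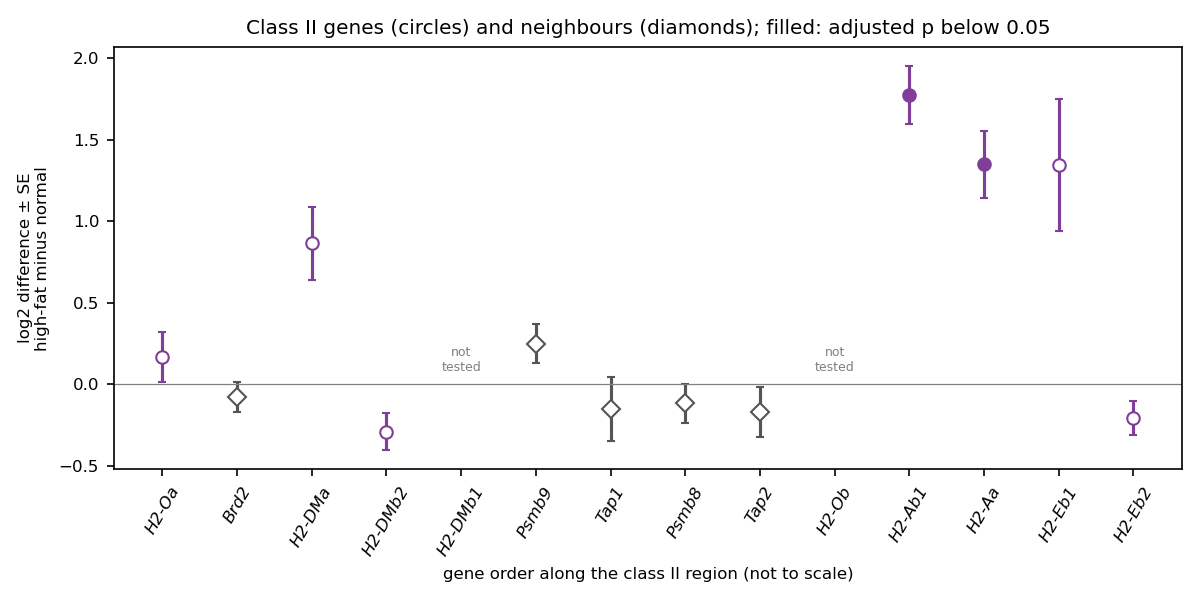
Log2 difference, high-fat minus normal diet, with the SE of limma's fit (n = 3 arrays per diet), for protein-coding genes in their order along the class II region. Circles are class II genes, diamonds their neighbours and filled symbols passed an adjusted p below 0.05. H2-Ab1, H2-Aa and H2-Eb1 stand above 1, and the 5 neighbours stay between -0.17 and 0.25.

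The factors that act on class II promoters were described next. Of 13 tested genes 0 rose and 0 fell by limma (1 higher and 1 lower at an unadjusted p below 0.05), with a median difference of -0.12. The RFX subunit genes Rfx5, Rfxank and Rfxap differed by 0.049 ± 0.19, -0.23 ± 0.16 and -0.22 ± 0.15, none of them called.

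Interferon gamma is the main inducer of Ciita outside antigen-presenting cells. Among 12 tested genes of its signalling 0 rose and 1 fell by limma, against 1.73% of all tested genes that fell, and 1 was higher and 3 were lower at an unadjusted p below 0.05. The gene that fell was Iigp1, an interferon-inducible GTPase gene, at 11.20, 10.91 and 11.62 under the normal diet and 9.93, 9.65 and 9.84 under the high-fat diet (-1.44 ± 0.19, limma adjusted p = 0.00859). With high-fat 3 left out its limma adjusted p was 0.0519. The receptor gene Ifngr1 and the transcription factor gene Irf1 differed by 0.16 ± 0.12 and 0.036 ± 0.11 and were not called. Cxcl9, a chemokine gene induced by interferon gamma, lay at 6.79, 7.23 and 6.21 and at 7.23, 7.60 and 8.00, and its difference of 0.87 ± 0.28 did not pass (limma adjusted p = 0.104). Ifng itself was below the filter (2.24 to 2.50 in all arrays).

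Of 14 other endosomal and lysosomal genes, most but not all of them of proteolysis, 3 rose and 0 fell, with a median difference of 0.41. Ctsd, Ctsz and Ctsk, which encode cathepsins D, Z and K, rose 1.69-fold, 1.61-fold and 1.54-fold. Lgmn, which encodes an asparagine-cutting protease of the same compartment, differed by 0.63 ± 0.21 and did not pass (limma adjusted p = 0.108). Without high-fat 1, 2 and 3 the count of 3 became 0, 0 and 1, and with the replicate block it became 1, as Ctsz and Ctsk lost their calls (limma adjusted p = 0.0593 and 0.0559). In the list of other class II chains and class II-associated proteins, 1 of 8 rose, the tetraspanin gene Cd81 (1.45-fold), and 0 rose after cyclic loess, with the replicate block, without normal diet 1 or with any high-fat array left out.

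Co-stimulatory genes, whose products T cells read beside class II, gave 2 that rose and 0 that fell among 7 tested. Cd48, which encodes a leukocyte surface ligand, was at 3.74, 4.19 and 4.26 and at 5.32, 5.29 and 5.46 (1.30 ± 0.15, limma adjusted p = 0.00653), and was called whichever array was left out. Cd83, whose product holds class II and CD86 on the surface of dendritic cells, rose 1.52-fold (0.60 ± 0.12). Cd83 lay at 3.52, 3.60 and 3.57 and at 3.96, 4.27 and 4.26, so its normal diet levels were close to the level filter. With 4 arrays above that filter, Cd83 was not tested when the filter was set at the median. It was not called without normal diet 1 or 2 or without high-fat 2 or 3 (adjusted p up to 0.114). The classical co-stimulators Cd86 and Cd40 differed by 0.28 ± 0.094 and -0.12 ± 0.094 and did not pass (limma adjusted p = 0.109 and 0.423). Cd80 was below the filter.

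MHC class I presentation shows peptides from inside the cell. Of its 12 listed genes 0 rose and 0 fell by limma (0 higher and 2 lower at an unadjusted p below 0.05), and the median difference was -0.050. The differences ranged from -0.48 to 0.27. After quantile normalization, after cyclic loess, with array weights, with probe sets averaged per gene and without normal diet 3, 1 of them fell.

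Levels of cell type markers were read beside these genes. Of 10 pan-leukocyte genes 7 rose, with the mean log2 level of the list at 6.44 to 6.59 in the normal diet arrays and 7.08 to 7.37 in the high-fat arrays. Ptprc, which encodes CD45, was at 5.33, 5.38 and 5.30 and at 6.28, 6.44 and 6.67 (1.12 ± 0.12, 2.18-fold, limma adjusted p = 0.00496). Averaging the Ptprc probe sets instead gave a difference of 0.55, still called. Of 10 macrophage and monocyte markers 6 rose, with mean levels of 6.70 to 6.95 and 7.21 to 7.27, among them the lysosomal membrane gene Cd68 (2.42-fold), the growth factor receptor gene Csf1r (1.74-fold) and Adgre1, a surface receptor gene of mouse macrophages (1.56-fold). Adgre1 was called in 7 of 15 alternatives. The 4 that were not called included Ccr2 and Cx3cr1, chemokine receptor genes, and Cd14, which encodes a lipopolysaccharide co-receptor, with differences of -0.38 ± 0.12, -0.21 ± 0.094 and -0.77 ± 0.49. Ccr2 and Cx3cr1 had every high-fat array below every normal diet array, a pattern whose share of all tested genes was not counted. In this list 1 gene fell without normal diet 1 and without normal diet 2. The part of these markers in the class II differences was not tested. Without high-fat 1, 2 and 3 the pan-leukocyte count became 3, 2 and 2, the macrophage count 4, 1 and 1. The pan-leukocyte count was 4 without normal diet 2 and 3 after quantile normalization.

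Of 13 resident Kupffer cell markers 4 rose, with mean levels of 7.62 to 7.71 and 7.92 to 8.09. These were Cd5l (1.75-fold), Vsig4 (1.63-fold), and the complement genes C1qc and C1qb. Differences over the 13 markers ranged from -0.63 to 1.10, with a median of 0.32, and neither end of this range was called. Clec4f, a lectin gene of Kupffer cells, differed by 0.071 ± 0.18 and was not called (limma adjusted p = 0.828). With any high-fat array left out 0 were called, and 2 after quantile normalization. Of 9 markers of lipid-associated macrophages 5 rose, with mean levels of 5.70 to 6.50 and 7.16 to 7.24, and 3 rose whichever high-fat array was left out. Mmp12, Clec7a and Lgals3 had the largest of these differences, at 2.12, 2.41 and 2.19. Gpnmb and Itgax also rose, and Itgax is counted again among the dendritic cell markers below. Trem2, a receptor gene that marks this macrophage state, differed by -0.43 ± 0.15 and did not pass (limma adjusted p = 0.117). Every high-fat array of Trem2 lay below every normal diet array, a pattern not counted over all tested genes. Fabp5, a fatty acid binding protein gene, differed by -0.14 ± 0.59 with overlapping groups.

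Dendritic cells and B cells also carry class II. Of 11 dendritic cell markers 1 rose, with mean levels of 4.90 to 4.98 and 4.997 to 5.06, and it was Itgax, which encodes CD11c and which macrophages can carry too. Itgax lay at 3.95, 4.09 and 4.17 and at 4.79, 4.65 and 4.93 (0.72 ± 0.12, limma adjusted p = 0.0146), and it missed the threshold with each of the high-fat arrays left out (adjusted p 0.0510 to 0.0722). Flt3, a receptor gene that defines dendritic cells, differed by -0.11 ± 0.095 and was not called, while Xcr1 and Clec10a did not pass the level filter. Of 8 B cell markers 0 rose and 0 fell by limma (1 higher at an unadjusted p below 0.05), with mean levels of 4.85 to 4.93 and 4.81 to 4.88. Cd79a, which encodes a chain of the B cell receptor, differed by -0.20 ± 0.12, and Ms4a1, which encodes CD20, did not pass the filter. Of 6 T and NK cell markers limma called 0 (0 at an unadjusted p below 0.05), with mean levels of 4.78 to 4.92 and 4.71 to 4.80. These 6 were tested out of 15 listed, as were 8 of 13 B cell and 11 of 14 dendritic cell entries. Some tested markers lay close to the filter, such as Ccr7 (3.42 to 3.83) and Itgae (3.45 to 3.78). This limits what the arrays could detect for these lists.

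Of 11 sinusoidal endothelial markers 1 rose, Lyve1, and of 9 hepatocyte markers 2 fell, Fgb and Hnf4a. Mean levels of the endothelial list were 6.58 to 6.95 and 7.10 to 7.24, and those of the hepatocyte list 12.36 to 12.38 and 12.13 to 12.18. Of the hepatocyte list 5 genes were lower at an unadjusted p below 0.05, with a median difference of -0.22. Lyve1, Fgb and Hnf4a each lost their call with any high-fat array left out, and Hnf4a also when its probe sets were averaged (-0.48) or limited to those without a suffix (-0.41).

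**Figure D4:**
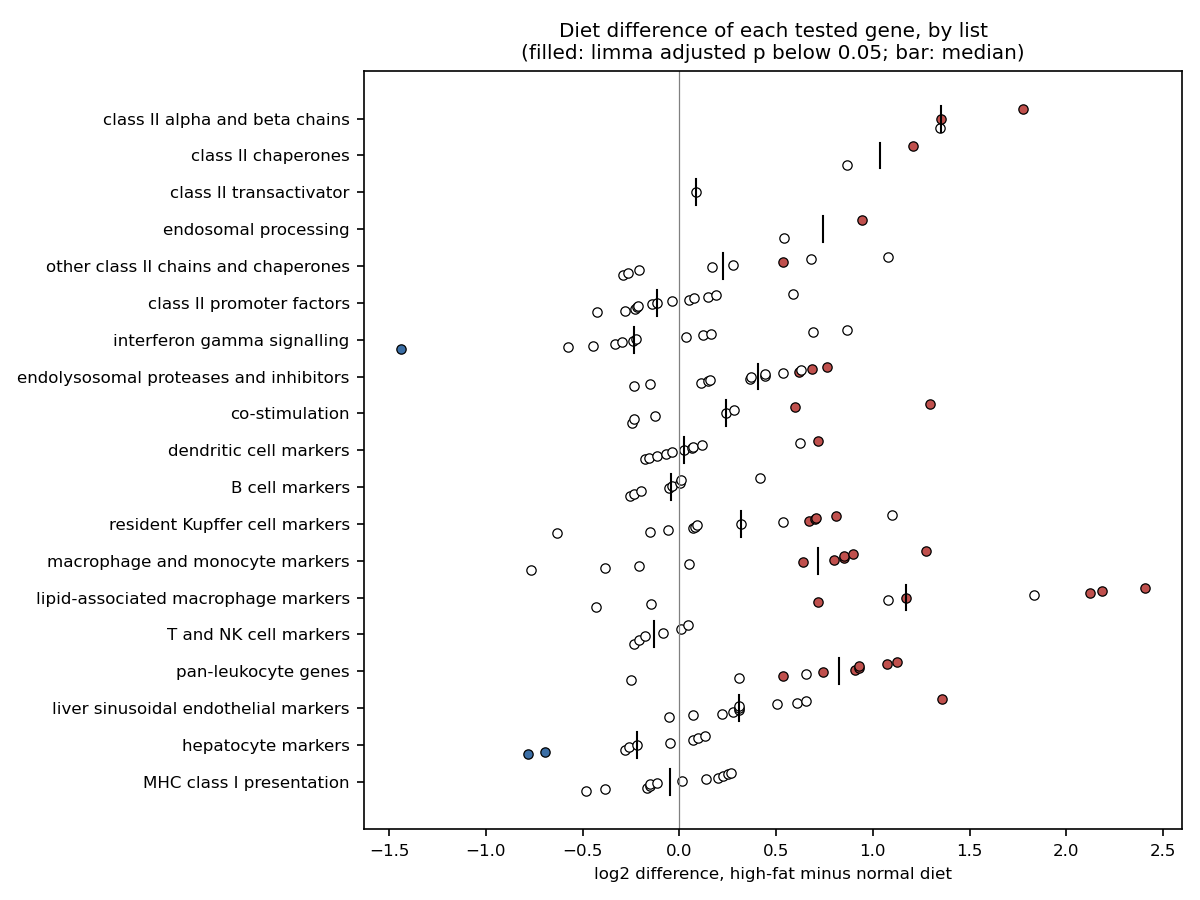
Log2 difference, high-fat minus normal diet (x axis), of each tested gene (point) in the class II groups and in the lists of pathway genes and cell type markers. Filled points passed a limma adjusted p below 0.05 (red higher, blue lower) and bars give the median of a list, which is 0.83 for pan-leukocyte genes, 0.72 for macrophage and monocyte markers, 0.026 for dendritic cell markers and -0.044 for B cell markers. Several dendritic and B cell markers lay near or below the level filter, which limits what the medians of these lists can show.

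Genes with a profile like that of Cd74 were sought among the other tested genes outside the class II set, by the root mean square difference between profiles over the 6 arrays after each gene was centred on its mean. Cd74 spanned 1.91 log2 units over the arrays. The closest of 14063 genes was Ly86, which encodes MD-1, the partner of the receptor RP105 on B cells and macrophages, at 0.092. Ly86 lay at 5.38, 5.80 and 5.29 and at 6.48, 6.58 and 6.97, with high-fat 3 highest and normal diet 3 lowest, as for Cd74. A gene picked for closeness to Cd74 tends to share this order, so the likeness is no separate result. Pstpip2, a cytoskeletal adaptor gene of macrophages, followed at 0.10, and Mid1ip1, which encodes a protein that promotes acetyl-CoA carboxylase activity, at 0.11. The next were Lrsam1, Elk3, Klhl5, Ppm1h and Arsb, at 0.13 to 0.15. H2-Aa was at 0.18, with 17 genes outside the set closer to Cd74, and H2-DMa at 0.24, with 73 closer. H2-Ab1, H2-Eb1, Ctss and Ifi30 were at 0.31, 0.34, 0.36 and 0.45, with 258, 461, 570 and 1420 genes outside the set closer. Ciita was at 0.66, with 6567 closer.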

How the data were processed

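Liver RNA of 2 diets was measured on 6 arrays. The deposited values are log2 levels per probe set. The submitters' processing notes name RMA, a method that corrects background, quantile-normalizes the arrays and summarises probes, and Expression Console 1.0; the log2 scale of the deposited values was read from their range. Near background RMA shrinks differences, and dim genes then show too small a fold. Without 64 control probe sets, 45037 were kept, of which 34945 had 1 gene symbol and 932 several. Symbols were checked by gene ID against RefSeq (34741 matched, 0 changed). Limma 3.58.1 in R 4.3.3 fitted diet with lmFit and eBayes, two-sided, and was tested on simulated data. Groups came from the sample titles. The genes, lists and alternatives were chosen with earlier results of these data known, and the lists are no independent support. The X box was searched first in its planned 10-letter form, and the 8-letter form printed here was added after those matches were seen, because the longer form could not be printed; both results are given. Named are all 9 genes, called list genes (up to 6 per list by p, some not named here), landmark genes and the 8 genes nearest Cd74. Landmarks with no probe set of a single symbol are not analysed here. Alternatives were further scaling, level filters, variance models, probe set choices, the replicate number as a block, and leaving out arrays. Tables and plots used Python 3.11.15, pandas 2.3.3 and matplotlib 3.10.9.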

Additional observations from a re-analysis of the deposited data

How the results depend on the processing

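H2-Aa, H2-Ab1, Cd74 and Ctss stayed called under every other scaling, level filter and variance model and with the replicate block, and H2-Eb1 and Ifi30 under none of the alternatives. The count of class II genes called was 1 with probe sets without a suffix, because H2-Aa, H2-Ab1 and Cd74 have none, so this gave no value for them. With the mean of the probe sets H2-DMa was called (0.70), and Ciita was not tested then or with the filter at the median. Tested individually, the H2-Aa probe set 1438858_x_at was not called (0.94). Leaving out each array in turn gave 2 to 4 called class II genes, 154 to 1241 called genes in all and 8 to 38 called genes of the other lists (4, 1070 and 32 with all arrays). It gave differences of 1.03 to 1.37 for Cd74, 1.11 to 1.53 for H2-Aa and -0.047 to 0.18 for Ciita, which turned sign without normal diet 1 and without high-fat 2 (-0.017 and -0.047). Fits on 5 arrays kept the filter of 3 arrays. Deviations of same-numbered pools from their diet means correlated weakly (-0.012, 0.036 and 0.100). This cannot show whether those pools were handled together. With the replicate block 4 class II genes, 768 genes in all and 27 of the lists were called. Scaling moved the median of all tested genes from 0.0033 to between -0.030 and 0.050. Levels near the filter, as for Ciita, limit what could be detected.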
